A study of Mus musculus with 6 samples.

Results

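Amino acid transporters are membrane proteins that move amino acids across the cell surface and the lysosomal membrane. The genes described here are those of the solute carrier families Slc1a, Slc3a, Slc7a, Slc36a, Slc38a and Slc43a, chosen by their symbols alone from the 22880 genes of the deposited table. This choice held 41 genes, with 7 of the Slc1a family, 2 of Slc3a, 14 of Slc7a, 4 of Slc36a, 11 of Slc38a and 3 of Slc43a. A further gene of the Slc7a family was left out by the choice and is not analysed here.

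RNA was sequenced from MC-38 cells, a mouse colon adenocarcinoma line, in 3 Mock and 3 HIF-1α-KD libraries. All of these cells carried the pLKO.1-puro vector, and the labels state no in vivo passaging, which is read here as that of the line before injection. The HIF-1α-KD cells differed by a knockdown of HIF-1 alpha, the oxygen-regulated subunit of the transcription factor HIF-1. The cells were grown as orthotopic tumors in the cecum wall of mice (the methods name C57BL/6 J) and sorted as GFP+ cells lacking CD45, a marker of leukocytes, and CD31, a marker of endothelium. The age of the mice and the day on which the sorted tumors were collected are not given in the sources used here, and the labels do not say whether a library holds a single tumor or whether a line is a single clone, so the p-values measure the spread between these libraries, which may be partly technical.

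The Slc7a light chains Slc7a5 to Slc7a8 reach the cell surface only when bound to the heavy chain Slc3a2 (CD98), and the pair of Slc7a5 and Slc3a2 takes up leucine and other large neutral amino acids in exchange for glutamine. The exchangers Slc1a4 and Slc1a5 and the sodium-coupled Slc38a1 and Slc38a2 carry small neutral amino acids and glutamine, Slc7a1 to Slc7a3 carry arginine and lysine, and Slc36a1 and Slc38a9 serve in the lysosome, where Slc38a9 passes the level of arginine on to the kinase mTORC1. Tumor cells are known to depend on such uptake, and HIF-1 is known to activate genes of glucose uptake and glycolysis through sites with a short core sequence. The comparison of HIF-1α-KD with Mock cells asks whether the transcripts of these transporters differ when HIF-1α is lowered in tumor cells growing in the gut wall.

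The promoter sequences of 3 transporters are shown for this reason, namely of Slc7a1 and Slc38a10, in which the groups did not overlap, and of Slc3a2, the most highly expressed transporter with an entry in the RefSeq promoter table used here (GRCm38.p6). Each is the stretch of 250 bases before the RefSeq start, on the minus strand of the chromosome and written 5′ to 3′ along the gene, and capitals mark the core of the hypoxia response element (ACGTG or GCGTG, searched on both strands, so that CACGT and CACGC are cores on the opposite strand).
Slc3a2, chr19:8713898-8714147: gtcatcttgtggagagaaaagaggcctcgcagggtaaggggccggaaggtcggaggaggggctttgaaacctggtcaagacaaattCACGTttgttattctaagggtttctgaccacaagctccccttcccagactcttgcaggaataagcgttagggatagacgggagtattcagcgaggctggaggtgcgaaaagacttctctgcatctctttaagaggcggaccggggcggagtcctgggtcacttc
Slc7a1, chr5:148399905-148400154: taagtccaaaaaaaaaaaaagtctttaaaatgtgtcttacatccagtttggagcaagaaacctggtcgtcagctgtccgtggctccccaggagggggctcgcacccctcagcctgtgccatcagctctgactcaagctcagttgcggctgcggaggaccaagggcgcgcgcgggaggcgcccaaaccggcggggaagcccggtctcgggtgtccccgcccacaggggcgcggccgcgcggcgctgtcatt
Slc38a10, chr11:120151352-120151601: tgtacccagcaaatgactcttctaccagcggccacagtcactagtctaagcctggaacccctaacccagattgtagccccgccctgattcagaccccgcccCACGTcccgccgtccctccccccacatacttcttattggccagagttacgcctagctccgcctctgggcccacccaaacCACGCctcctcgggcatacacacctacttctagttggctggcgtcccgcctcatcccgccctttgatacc
The window of Slc38a10 held 2 cores, that of Slc3a2 held 1 and that of Slc7a1 held 0. The RefSeq start of Slc3a2 lies 9472 bases inside the gene as GENCODE draws it. Of the 41 transporters, 30 were in the table, 16 of them expressed well enough to be tested, and a core was present in the windows of 16 of the 30 and of 8 of the 16 (Slc1a4, Slc1a7, Slc36a1, Slc36a4, Slc38a7, Slc38a10, Slc3a2 and Slc7a6). Of all 32851 promoters of the same length, 38.6% held a core. The longer amino acid response element TGATGNAAN, the kind of site that ATF4 binds when amino acids run short, was found in 3.44% of all promoters and in 1 of the 30 transporters, Slc7a7. Such matches describe the letters in a window only.

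Between 19845852 and 30809139 reads per library fell on genes, and levels are given as normalized counts (reads divided by a factor for each library) or, between genes, as FPKM (reads scaled by the length of the gene and the depth of the library). The filter on low counts (filterByExpr, minimum count of 10) kept 12014 genes. Hif1a, the targeted gene, had 6914, 5424 and 4945 normalized counts in Mock against 697.3, 3142 and 1928 in HIF-1α-KD libraries (log2 fold change -1.82, SE 0.46, limma adjusted p = 0.219), without overlap of the groups and with HIF-1α-KD replicate 1 the lowest. The epithelial markers (9 genes) were low in every library, with a summed FPKM of 2.25, 2.27 and 18.2 in Mock replicates 1, 2 and 3. In HIF-1α-KD libraries the sum was between 2.21 and 4.28. Mock replicate 3 thus stood apart, and its part in the levels of the transporters was not tested. Cdx2 never rose above 3 reads. Fibroblast and pericyte markers (9 genes) summed to between 546 and 972 FPKM in Mock and to between 419 and 705 in HIF-1α-KD libraries. Most of this was Dcn alone, at 466.5 to 905.9 FPKM in Mock and 344.9 to 619.9 in HIF-1α-KD libraries. Pdgfra and Pdgfrb lay between 17.46 and 48.44 FPKM in every library, whereas Thy1 reached at most 0.41. Endothelial markers (8 genes) summed to between 5.44 and 6.71 FPKM in Mock and to between 3.98 and 5.57 in HIF-1α-KD libraries, with Emcn and Cldn5 at no more than 3 reads in each library. The 12 leukocyte markers summed to between 144 and 158 FPKM in Mock libraries and to 89.4, 109 and 473 in HIF-1α-KD libraries. Of them, 10 were highest in HIF-1α-KD replicate 3. Cd3e had no more than 3 reads in each library, and Cd79a was lowest in HIF-1α-KD replicate 3 (3.435 FPKM, against 4.276 to 9.009 in the other libraries). Fewer cells of a type and less RNA per cell cannot be told apart in such bulk samples.

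Of the 41 transporters, 22 passed the filter, with 3 of Slc1a, 1 of Slc3a, 7 of Slc7a, 2 of Slc36a, 8 of Slc38a and 1 of Slc43a. The other 19 were at most faintly expressed in these cells, the highest value being 17 reads. Of these, 8 had 0 reads in each of the 6 libraries, namely Slc1a6, Slc36a3, Slc38a11, Slc7a10, Slc7a12, Slc7a13, Slc7a14 and Slc7a15, which allows a level of up to 3 reads in a library. A further 4 reached at most 3 reads (Slc1a1, Slc1a3, Slc36a2 and Slc38a5), and 7 reached more (Slc1a2, Slc3a1, Slc38a8, Slc43a1, Slc43a3, Slc7a4 and Slc7a9). The glutamate transporters Slc1a1, Slc1a2, Slc1a3 and Slc1a6, known from the brain, the kidney and gut cystine carrier of Slc3a1 with Slc7a9, and the serine carrier Slc7a10 were thus all among the genes below the filter.

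Per length of transcript, Slc7a5 was the most highly expressed of the transporters, followed by its heavy chain Slc3a2. The FPKM of Slc7a5 was between 293 and 410 over the 6 libraries (mean 345), above 97.5% of the tested genes, and that of Slc3a2 was between 138.3 and 210.5 (mean 163), above 94.3% of them. These ranges did not overlap each other, and neither did those of Slc3a2 and the next gene, Slc38a10 (mean FPKM 86.5). Slc7a1 (mean FPKM 85.7) overlapped with Slc38a10 but not with the next gene, Slc38a2 (mean FPKM 54.8). Slc1a5 (mean FPKM 46.9), Slc7a6 (34.5), Slc38a7 (25.8) and Slc1a4 (22.8) followed, each overlapping with its neighbour in this order, and a gap without overlap separated Slc1a4 from Slc36a1 (mean FPKM 12.5). From Slc36a1 down to Slc1a7 (mean FPKM 0.351) each neighbour overlapped the next. Of the 21 neighbouring pairs, 17 had overlapping ranges, and in 14 of these the order was not kept in every library, whereas Slc7a6 lay above Slc38a7, Slc38a1 above Slc43a2 and Slc38a6 above Slc38a9 in all 6 libraries. Slc7a5 and Slc3a2 together gave 54.9% ± 2.83 (SD, n = 3) of the summed FPKM of all 41 transporters in Mock against 55.0% ± 4.11 (SD, n = 3) in HIF-1α-KD cells, and the ratio of Slc7a5 to Slc3a2 was 2.13 ± 0.23 (SD, n = 3) in Mock against 2.15 ± 0.17 (SD, n = 3) in HIF-1α-KD cells.

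**Figure D1:**
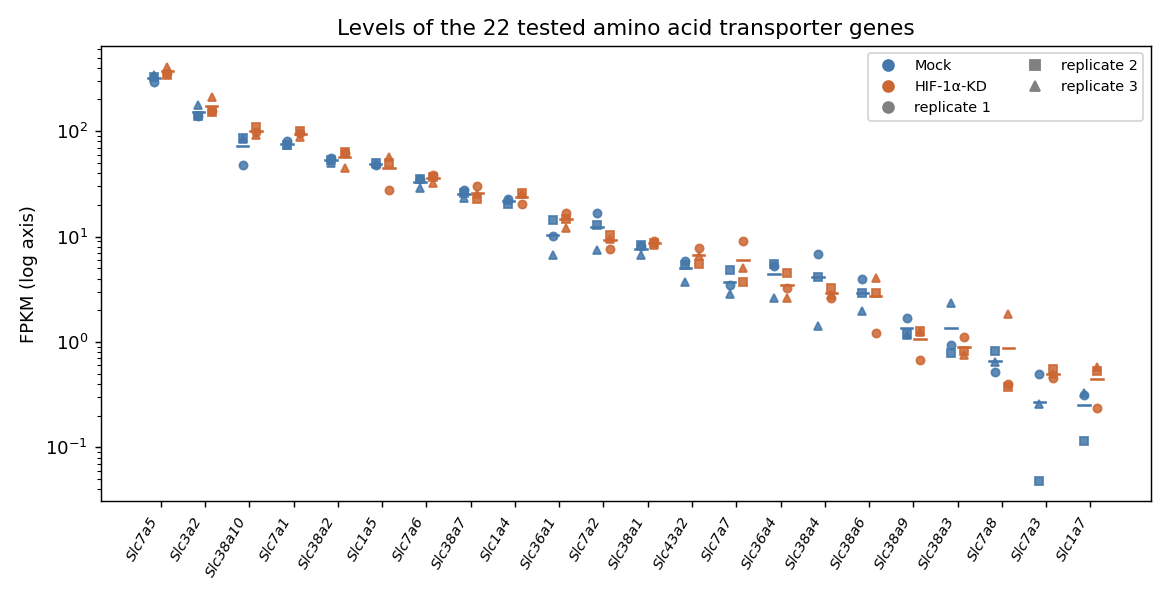
FPKM (log axis) of the 22 tested transporter genes, ordered by their mean over 6 libraries; points are libraries (color for the group, shape for the replicate number) and short lines are group means. Slc7a5 (293 to 410 FPKM) and Slc3a2 (138.3 to 210.5 FPKM) stand above the other genes, and the libraries spread most widely among the low genes at the right.

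None of the 22 tested transporters passed the test between HIF-1α-KD and Mock cells. At a limma adjusted p-value under 0.05, 0 of 22 were called against a background of 0.391% of the 12014 genes tested (47 genes), and the adjusted p-values of the transporters lay between 0.450 and 0.978. At an unadjusted p-value under 0.05, 0 of 22 were called as well, against 12.7% of all genes tested, and edgeR and DESeq2 also called 0 at either threshold (backgrounds of 0.391% and 2.36% at the adjusted and of 12.4% and 13% at the unadjusted threshold). The log2 fold change was above 0 for 13 transporters and below 0 for 9, with a median of 0.06 and a range of -0.50 to 1.19, where the median of all genes tested was 0.02. The groups did not overlap in 2 of the 22 transporters, against 19.2% of all genes tested.

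The size of change that these libraries could leave unseen differed between the transporters. The 95% confidence interval of the fold change lay within 1.5-fold in either direction for 8 of the 22 transporters, against 32.1% of all genes tested, and within 2-fold for 11, against 71.1% of all genes tested. It was narrowest for Slc7a1, at 0.62 on the log2 scale from end to end, and widest for Slc7a3, at 3.38. For the other 11, among them every tested transporter below Slc43a2 in mean FPKM, the interval reached past a 2-fold change in at least 1 direction, so that a change of that size could not be told from none with these libraries. With 3 libraries a group, permuting the labels exactly gives no p-value under 0.1, and such a test is not given for single genes.

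**Figure D2:**
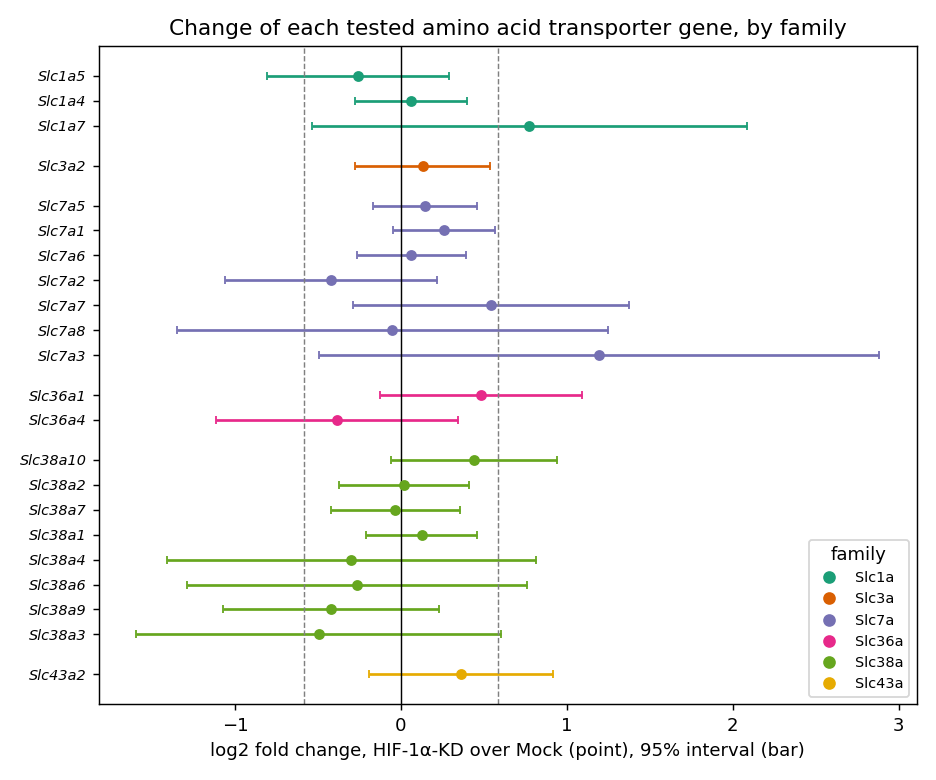
Log2 fold change of HIF-1α-KD over Mock cells (points, limma) with its 95% confidence interval (bars) for the 22 tested transporters, grouped by family; dashed lines mark a change of 1.5-fold in either direction. Every interval holds 0, and 8 of the 22 lie wholly between the dashed lines.

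The heavy chain Slc3a2 (ENSMUSG00000010095, chromosome 19, 8706882 to 8723369 in GRCm38, as for all positions here) had 9640, 8931 and 12190 normalized counts in Mock against 10460, 9788 and 13440 in HIF-1α-KD libraries. Replicate 3 was the highest in both groups, and the groups overlapped. Its log2 fold change was 0.13 (SE 0.18, limma adjusted p = 0.800), with a 95% interval of -0.27 to 0.54.

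Slc7a5 (ENSMUSG00000040010, chromosome 8, 121881150 to 121907694), the light chain of this leucine carrier, had 10820, 11380 and 12500 normalized counts in Mock against 12640, 11750 and 14010 in HIF-1α-KD libraries. The groups overlapped in one pair of libraries, HIF-1α-KD replicate 2 lying below Mock replicate 3. Between the group means the log2 fold change was 0.14 (SE 0.14, limma adjusted p = 0.694), with a 95% interval of -0.17 to 0.46. On the FPKM scale, which divides by the total reads of a library, the same gene ranged from 293 to 339.7 in Mock and from 342.9 to 410 in HIF-1α-KD libraries, so that its overlap depends on the scaling. A gene on the opposite strand, Gm20388, spans Slc7a5 with separate exons.

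Slc7a1 (ENSMUSG00000041313, chromosome 5, 148327410 to 148399904), the main carrier of arginine and lysine in most cells, had 6661, 5693 and 6115 normalized counts in Mock against 7706, 7764 and 6677 in HIF-1α-KD libraries. Each HIF-1α-KD library lay above each Mock library, by a narrow margin between HIF-1α-KD replicate 3 and Mock replicate 1. For Slc7a1 the log2 fold change was 0.26 (SE 0.14, limma adjusted p = 0.466), with a 95% interval of -0.05 to 0.57. Among all genes tested, 10.4% were higher in HIF-1α-KD cells without overlap, and under TMM scaling Slc7a1 was no longer among them. Its unadjusted p-value came under 0.05 with scaling by total reads (limma adjusted p = 0.341) and without Mock replicate 1 (limma adjusted p = 0.590).

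The other carriers of cationic amino acids did not share a direction. Slc7a2, which supplies arginine to macrophages and liver, had 2019, 1463 and 883 normalized counts in Mock against 883.9, 1165 and 1055 in HIF-1α-KD libraries, with Mock replicate 1 the highest and Mock replicate 3 the lowest of all 6. Its log2 fold change was -0.42 (limma adjusted p = 0.576), and without Mock replicate 3 it was -0.74 (unadjusted p under 0.05, limma adjusted p = 0.325), and without Mock replicate 1 it was -0.14. Exons of Gm26584 on the opposite strand overlap those of Slc7a2. Slc7a3 had 20.93, 1.914 and 10.87 normalized counts in Mock against 18.5, 21.58 and 19.64 in HIF-1α-KD libraries, and it passed the filter through its HIF-1α-KD libraries. The value of 1.19 for its log2 fold change (limma adjusted p = 0.542) thus rests on a few reads, and without Mock replicate 1 it was 1.83 (unadjusted p under 0.05, limma adjusted p = 0.588). It fell to 0.37 without Mock replicate 2, the library with the fewest reads of this gene, and was 0.83 with edgeR, 0.82 with DESeq2 and 0.60 with a pseudocount of 10.

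Of the remaining light chains, Slc7a6, which exchanges arginine for neutral amino acids, ranged between 2771 and 3361 normalized counts in Mock and between 2885 and 3544 in HIF-1α-KD libraries (log2 fold change 0.06, 95% interval -0.27 to 0.39). Slc7a7, with the same kind of exchange, had 104.6, 135.9 and 85.76 normalized counts in Mock against 263, 104.3 and 138.6 in HIF-1α-KD libraries, HIF-1α-KD replicate 1 standing above all others (log2 fold change 0.54, limma adjusted p = 0.577; 0.17 without that library and 0.83 without HIF-1α-KD replicate 2). Its exons overlap those of Oxa1l on the opposite strand, which had at most 990 reads in any library, where the fewest of Slc7a7 in any library were 71, and since the strand used in counting is not given the value of Slc7a7 is uncertain. Slc7a8, a carrier of small and large neutral amino acids, had 54.17, 79.43 and 66.44 normalized counts in Mock against 40.22, 35.97 and 175.6 in HIF-1α-KD libraries. HIF-1α-KD replicate 3 was high and the other 2 lay below every Mock library, and the log2 fold change was -0.05 (limma adjusted p = 0.978), -0.78 without that library, and above 0 with edgeR (0.31), DESeq2 (0.32) and scaling by total reads. The same library held the highest level of leukocyte markers (473 FPKM, against 89.4 to 158 in the other 5), whose part in the level of Slc7a8 was not tested.

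In the Slc7a family as a whole, 5 of the 7 tested genes had a log2 fold change above 0 and 2 below, with a median of 0.14, and 0 passed the test. The summed FPKM of the family was 447 ± 14.7 (SD, n = 3) in Mock against 517 ± 26.9 (SD, n = 3) in HIF-1α-KD cells, most of it from Slc7a5.

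In the Slc1a family, the glutamine carrier Slc1a5 (ENSMUSG00000001918, chromosome 7, 16781340 to 16798274) had 1523, 1514 and 1575 normalized counts in Mock against 854.2, 1472 and 1693 in HIF-1α-KD libraries. The Mock libraries lay close together, and HIF-1α-KD replicate 1 was the single low library while replicate 3 was the highest of all. This gave a log2 fold change of -0.26 (SE 0.24, limma adjusted p = 0.693), and without HIF-1α-KD replicate 1 it was 0.04. Hif1a itself was lowest in the same library, and the part of this in the level of Slc1a5 was not tested. Slc1a4, an exchanger of alanine, serine and cysteine, ranged from 1928 to 2270 normalized counts in Mock and from 1953 to 2391 in HIF-1α-KD libraries (log2 fold change 0.06, 95% interval -0.27 to 0.40). Slc1a7, a glutamate transporter of the retina, had between 6.699 and 33.5 normalized counts and a log2 fold change of 0.77 (limma adjusted p = 0.615), with the groups overlapping. The fold change was 0.29 without Mock replicate 2, 0.51 with a pseudocount of 10 and 1.14 without HIF-1α-KD replicate 1.

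**Figure D3:**
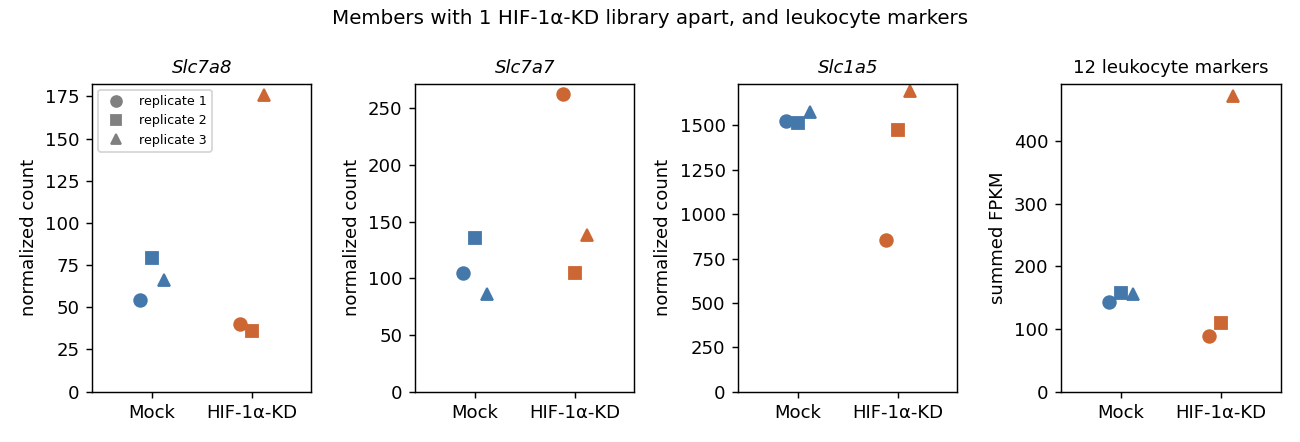
Normalized counts of Slc7a8, Slc7a7 and Slc1a5 and the summed FPKM of 12 leukocyte markers in each of the 3 Mock and 3 HIF-1α-KD libraries (points, shape for the replicate number; axes start at 0); the genes were chosen after their values were seen. Replicate 3 of HIF-1α-KD is the high point for Slc7a8 (175.6) and for the leukocyte markers (473), whereas replicate 1 is the high point for Slc7a7 (263) and the low point for Slc1a5 (854.2).

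In the Slc38a family, 3 of the 8 tested genes had a log2 fold change above 0 and 5 below, with a median of -0.15, and 0 passed the test. Slc38a10 (ENSMUSG00000061306, chromosome 11, 120103960 to 120151346), a glutamine and alanine transporter, had 1938, 3247 and 3402 normalized counts in Mock against 3824, 4095 and 3418 in HIF-1α-KD libraries. Each HIF-1α-KD library lay above each Mock library, but HIF-1α-KD replicate 3 and Mock replicate 3 were almost level, and Mock replicate 1 was far below the others. For Slc38a10 the log2 fold change was 0.44 (SE 0.22, limma adjusted p = 0.450), the smallest p-value among the 22 transporters, with a 95% interval of -0.06 to 0.94. Without Mock replicate 1 it fell to 0.18, without Mock replicate 3 it was 0.59 (unadjusted p under 0.05, limma adjusted p = 0.406), and under TMM scaling the groups overlapped. A gene on the opposite strand, Gm11769, overlaps exons of Slc38a10.

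Slc38a2 (ENSMUSG00000022462, chromosome 15, 96687392 to 96699730), the carrier that cells are known to raise when amino acids are scarce, had 6554, 5978 and 5942 normalized counts in Mock against 7163, 6937 and 4865 in HIF-1α-KD libraries. HIF-1α-KD libraries were both the highest and the lowest of the 6. In the fit the log2 fold change was 0.02 (SE 0.17, limma adjusted p = 0.975), with a 95% interval of -0.37 to 0.41, and its sign turned under TMM scaling. Slc38a1, of the same transport system, ranged from 1250 to 1531 normalized counts in Mock and from 1457 to 1650 in HIF-1α-KD libraries (log2 fold change 0.12, 95% interval -0.21 to 0.46).

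Of the Slc38a members of the lysosome, Slc38a9 (ENSMUSG00000047789, chromosome 13, 112660751 to 112738749) had 381.6, 253.6 and 267 normalized counts in Mock against 150.4, 271 and 263.4 in HIF-1α-KD libraries. Mock replicate 1 was high and HIF-1α-KD replicate 1 low, and the other 4 lay within a narrow range. The fitted log2 fold change was -0.42 (SE 0.29, limma adjusted p = 0.580), -0.24 without Mock replicate 1 and -0.15 without HIF-1α-KD replicate 1. Exons of an antisense gene, Gm47827, overlap those of Slc38a9. Slc38a7, which carries glutamine out of the lysosome, ranged from 906 to 1080 normalized counts in Mock and from 827.4 to 1137 in HIF-1α-KD libraries (log2 fold change -0.03, 95% interval -0.42 to 0.35; with scaling by total reads 0.02). The other 3 genes of the family had lower counts and wide intervals, with log2 fold changes of -0.50 for Slc38a3, a glutamine carrier of liver and brain, of -0.30 for Slc38a4 and of -0.26 for Slc38a6. With 1 library left out, the value of Slc38a3 ranged from -0.83 to -0.0072, the latter without Mock replicate 3, its highest library. With DESeq2 and with edgeR the value of Slc38a3 was -0.68. That of Slc38a4 was -0.58 with DESeq2 and -0.59 with edgeR. Slc38a4 ranged from 105.1 to 507.2 normalized counts among the Mock libraries alone, and its log2 fold change was -0.92 without Mock replicate 3 (unadjusted p under 0.05, limma adjusted p = 0.352) and 0.21 without Mock replicate 1.

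In the Slc36a family of proton-coupled transporters, Slc36a1 (ENSMUSG00000020261, chromosome 11, 55204350 to 55236330), which carries small amino acids out of the lysosome, had 520.7, 683.3 and 343.1 normalized counts in Mock against 834.9, 694.3 and 575.2 in HIF-1α-KD libraries. All but one of the HIF-1α-KD libraries lay above the Mock libraries. The log2 fold change was 0.48 (SE 0.27, limma adjusted p = 0.491), and without Mock replicate 2 it was 0.71 (unadjusted p under 0.05, limma adjusted p = 0.335), whereas without Mock replicate 3 it was 0.22. Slc36a4, a carrier of proline and tryptophan, went the other way in value, with normalized counts of 491.2, 486.1 and 242.8 in Mock against 294.4, 389.7 and 226.4 in HIF-1α-KD libraries (log2 fold change -0.39, limma adjusted p = 0.655). Replicate 3 was the lowest in both groups, and without Mock replicate 3 the log2 fold change was -0.72 (unadjusted p under 0.05, limma adjusted p = 0.387). It was -0.19 without HIF-1α-KD replicate 3, -0.21 without Mock replicate 1 and -0.22 without Mock replicate 2.

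The only tested gene of the Slc43a family was Slc43a2 (ENSMUSG00000038178, chromosome 11, 75531694 to 75577575), a carrier of branched-chain and aromatic amino acids. It had 333.6, 283.3 and 209 normalized counts in Mock against 427.1, 289 and 340.8 in HIF-1α-KD libraries, and the groups overlapped through HIF-1α-KD replicate 2. The log2 fold change was 0.36 (SE 0.24, limma adjusted p = 0.576), and it was 0.18 without Mock replicate 3 and 0.21 without HIF-1α-KD replicate 1. Exons of the antisense gene Gm45606 overlap those of Slc43a2.

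Summed over all 41 transporters, the FPKM was 815, 876 and 890 in Mock against 946, 963 and 1042 in HIF-1α-KD libraries, or 860 ± 39.7 (SD, n = 3) against 984 ± 51.4 (SD, n = 3), a ratio of 1.14. The groups did not overlap in this sum, most of which came from Slc7a5 and Slc3a2. By family, the ratio of HIF-1α-KD to Mock was 0.969 for Slc1a, 1.14 for Slc3a, 1.15 for Slc7a, 1.21 for Slc36a, 1.18 for Slc38a and 1.31 for Slc43a. These are sums on the FPKM scale and are given as a description, without a test, and scaling by total reads moved the median log2 fold change of all genes tested to 0.08.

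The genes around amino acid transport were compared in the same fit. Of 20 other amino acid transporters, 9 were tested, and 0 passed at an unadjusted p-value under 0.05 (background 12.7%). The smallest p-values among them were those of the glycine transporter Slc6a9 (log2 fold change -0.31, limma adjusted p = 0.446), the neutral amino acid transporter Slc6a15 (-0.63, adjusted p = 0.518) and Ctns, which carries cystine out of the lysosome (-0.30, adjusted p = 0.536). The groups did not overlap in 2 of the 9, Slc6a9 and Ctns, both with lower values in HIF-1α-KD cells, against 19.2% of all genes tested in either direction and 8.75% in that one.

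Of 26 enzymes of glutamine, aspartate, arginine and branched-chain amino acid metabolism, 23 were tested and 0 passed at an adjusted p-value under 0.05. At an unadjusted p-value under 0.05, 2 were higher (background 7.04%) and 2 were lower (background 5.69%), and the median log2 fold change was 0.00. Bcat1, the cytosolic enzyme that takes the amino group from branched-chain amino acids, had 2574, 2406 and 2451 normalized counts in Mock against 3016, 3453 and 3396 in HIF-1α-KD libraries, without overlap (log2 fold change 0.41, limma adjusted p = 0.293). Gpt2, an alanine transaminase, had values in the same direction (0.39, adjusted p = 0.332), while Bckdha, a subunit of the mitochondrial complex that breaks down branched-chain keto acids, had lower values (-0.46, adjusted p = 0.355).

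Of 34 genes of amino acid sensing at the lysosome, 32 were tested and 0 passed at an adjusted p-value under 0.05, with 2 higher (background 7.04%) and 1 lower (background 5.69%) at the unadjusted threshold of 0.05 and a median log2 fold change of -0.02. Among these were Sesn2, a leucine sensor (log2 fold change 0.47, limma adjusted p = 0.381), and Gatsl3, an arginine sensor (-0.43, adjusted p = 0.329). Of 15 regulators of the amino acid response, all 15 were tested and 0 passed at an adjusted p-value under 0.05, with 2 higher (background 7.04%) and 1 lower (background 5.69%) at the unadjusted threshold and a median log2 fold change of 0.08. The kinase Eif2ak4, which senses uncharged tRNA, had 382.9, 661.3 and 520.6 normalized counts in Mock against 945.9, 703.9 and 805.1 in HIF-1α-KD libraries (log2 fold change 0.67, limma adjusted p = 0.312), Cebpb, a transcription factor, had lower values (-0.58, adjusted p = 0.345), and Sesn2 is a member of this list too.

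By contrast, of 12 known HIF-1 targets kept as a check of the knockdown, 8 were lower at an adjusted p-value under 0.05 (background 0.391% in either direction) and all 12 at an unadjusted one (background 5.69%), with a median log2 fold change of -1.71. This list was written with the study's results known and is not independent evidence of their direction. Bnip3, a mitophagy receptor, had 12980, 7365 and 7747 normalized counts in Mock against 1088, 1421 and 1753 in HIF-1α-KD libraries (log2 fold change -2.70, limma adjusted p = 0.0205), and the glycolytic enzyme Pgk1 (-1.55, adjusted p = 0.0245) and the hypoxia marker Ndrg1 (-1.59, adjusted p = 0.0245) fell too. The glucose transporter Slc2a1 (-1.83, adjusted p = 0.0254), a solute carrier outside the amino acid families, was among the 8. The count of 8 depends on single libraries: it stayed at 8 without HIF-1α-KD replicate 1, but was 0 without Mock replicate 3 or without HIF-1α-KD replicate 2, 1 without Mock replicate 1, 2 without HIF-1α-KD replicate 3, 4 without Mock replicate 2, and 0 with the replicate number as a block. The share of all genes called at this threshold in these settings is not given here. A loss particular to this list thus cannot be told from a general one. At an unadjusted p-value under 0.05, 10 to 12 of the 12 were lower with any 1 library left out (background 4.24% to 5.85%).

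**Figure D4:**
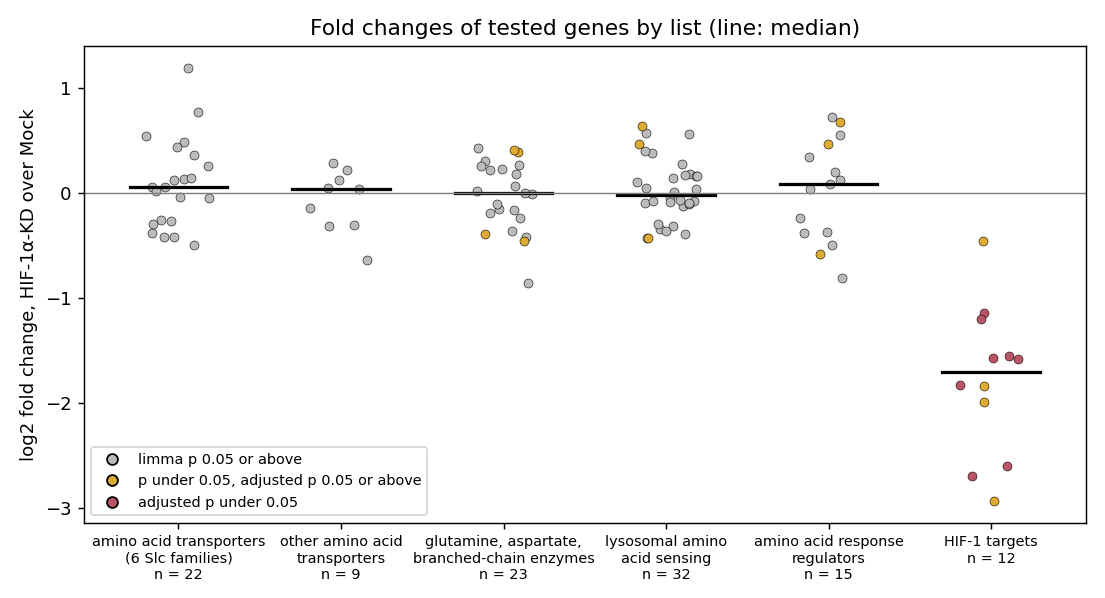
Log2 fold change of HIF-1α-KD over Mock cells for the tested genes of each list (points, n under each name; lines are medians), colored by the limma p-value. The 22 transporters center near 0 (median 0.06) with no colored point, as do the 9 other transporters, whereas the 12 HIF-1 targets center at -1.71.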

How the data were processed

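Polyadenylated RNA of sorted MC-38 tumor cells was sequenced in 3 Mock and 3 HIF-1α-KD libraries, grouped by the knockdown named in their labels. According to the methods, trimmed reads were aligned by the authors with STAR, gene counts were made with featureCounts, and DESeq2 was the test; the labels' processing notes name STAR, edgeR and GRCm38, whereas the methods name GRCh38, and the genes carry mouse Ensembl identifiers. Libraries were made with a kit that keeps strand, and the strand used in counting is not given in the sources used here.

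The deposited normalized counts are a signal, reads divided by one factor per library and with 4 digits kept. FPKM values were deposited too, with the gene width in bases used for them. The columns of the authors' own comparison (log2 ratio, p-value and false discovery rate) were not used. Whole reads were recovered from the steps of the normalized counts, and 100% of values up to 300 reads came out whole within 0.1 of a read. As the table holds no raw counts, the main test was the trended limma 3.58.1 fit of log2(normalized count + 1), two-sided, adjusted by Benjamini-Hochberg over the 12014 genes kept by filterByExpr of edgeR 4.0.16 (minimum count of 10). Fold changes are on this scale, on which the pseudocount shrinks the ratio of low values; the fit averages logs, so 1 low library weighs more than in a count model. The quasi-likelihood test of edgeR on the recovered reads called 47 genes at an adjusted p-value under 0.05, and DESeq2 1.42.0 called 283.

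Other alternatives were TMM and total-read scaling, no filter, pseudocounts of 0.1 and 10, a replicate block and leaving out each library. The tests were also run on simulated reads with planted changes, and the outcome is not given here. Named in full were members at p under 0.05 or without overlap, the most highly expressed of each family, the 5 most highly expressed of all, and Slc3a2, Slc7a5, Slc1a5, Slc38a2, Slc38a9 and Slc36a1; of the other lists, up to 3 genes with the smallest p, except Slc2a1 and the genes of the plot of single libraries, which were named after their values were seen. A gene of the sensing list that this rule names is not reported here. Members, though taken by their symbols, and lists were chosen with earlier results of these data known. Positions come from GENCODE for GRCm38, promoters from RefSeq. R 4.3.3, Python 3.11.15, pandas 2.3.3, numpy 2.4.6 and matplotlib 3.10.9 were used.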

Additional observations from a re-analysis of the deposited data

How the results depend on the processing

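No transporter passed an adjusted p-value under 0.05 in any of the alternatives run. Without the filter on low counts, 33 members were tested, and at an unadjusted p-value under 0.05, 1 was higher (Slc1a3; all genes tested: 6.09%) and 1 was lower (Slc7a4; all genes tested: 4.88%), each on a few reads, while family medians were -0.16 for Slc3a, 0.061 for Slc7a and 0.48 for Slc36a, since other genes then enter them. The Slc7a median was 0.25 with DESeq2 and 0.24 with edgeR. As Slc7a8 turned above 0 there, the middle value was that of Slc7a1 and no longer that of Slc7a5. With scaling by total reads, 1 member was higher at an unadjusted p-value under 0.05 (Slc7a1; all genes tested: 9.03%), the log2 fold changes of Slc7a8 (0.0044) and Slc38a7 (0.023) turned above 0, and 3 members (Slc38a10, Slc7a1 and Slc7a5; all genes tested: 2403 of 12014) had groups without overlap. With TMM scaling this count was 0 (all genes tested: 18.9%) and Slc38a2 turned to -0.0039. Slc7a8 was 0.32 with DESeq2 and 0.31 with edgeR.

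With each library left out in turn, members called at an unadjusted p-value under 0.05 numbered 0 to 2 higher and 0 to 3 lower of the 22 (all genes tested: 3.9% to 7.71% and 4.24% to 5.85%), and members without overlap 3 to 7 of the 22 (all genes tested: 26.0% to 31.2%), where a group of 2 overlaps less easily. The overlap alternatives were chosen after seeing the data. The median over members was between 0.014 and 0.15, and the family medians lay between -0.012 and 0.15 (Slc1a), -0.0062 and 0.26 (Slc3a), 0.12 and 0.22 (Slc7a), -0.25 and 0.25 (Slc36a), -0.22 and 0.051 (Slc38a), and 0.18 and 0.51 (Slc43a). The members whose sign turned ranged from -0.45 to 0.038 (Slc1a5), -0.78 to 0.35 (Slc7a8), -0.62 to 0.21 (Slc38a6), -0.015 to 0.14 (Slc7a6), -0.083 to 0.20 (Slc38a2), -0.16 to 0.070 (Slc38a7), -0.0062 to 0.26 (Slc3a2), -0.92 to 0.21 (Slc38a4) and -0.012 to 0.15 (Slc1a4). HIF-1 targets called at an adjusted p-value under 0.05 numbered 0 to 8, and the share of all genes called at that threshold is not given here. At an unadjusted p-value under 0.05, 1 to 3 enzymes were higher and 0 to 3 lower, 0 to 4 sensing genes higher and 0 to 3 lower, and 1 to 5 response regulators higher and 0 to 3 lower.

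Replicate numbers are shared by the groups, and no pairing is stated in the labels. Deviations from the group means correlated by -0.14, -0.12 and 0.02 for the same number and by -0.072 to 0.16 for other numbers. With so few libraries a group, these values cannot decide whether a number marks a shared day or batch. With the replicate number as a block, 0 HIF-1 targets and 0 members passed at an adjusted p-value under 0.05, and the share of all genes at that threshold is not given here. At an unadjusted p-value under 0.05, all 12 targets were lower in that fit (all genes tested: 5.05%). Slc7a3, with the widest interval, rests on as few as 2 reads in a library, and Slc36a1 and Slc7a2, with at least 284 and 731 reads in each library, also had intervals past 2-fold.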

Other observations

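Several transporter genes of the same family lie within 400 kb of each other in the genome (GRCm38). On chromosome 15, Slc38a1, Slc38a2 and Slc38a4 follow each other on the same strand at distances of 44.5 kb and 295 kb, with mean FPKM over the 6 libraries of 8.20, 54.8 and 3.51. On chromosome 11, Slc36a3, Slc36a2 and Slc36a1 lie within 6.76 kb and 19.3 kb of each other, and the first had 0 reads and the second at most 3 in a library, while Slc36a1 reached 1038. On chromosome 14, Slc7a7 and Slc7a8 are 304 kb apart, with mean FPKM of 4.83 and 0.767. On chromosome 2, Slc43a1 and Slc43a3 are 73.0 kb apart and had at most 8 and 15 reads in a library, and on chromosome 7, Slc7a10 and Slc7a9 are 248 kb apart and had at most 0 and 15 reads.

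Over the 6 libraries, the genes whose log2 values were most like those of Slc7a5 were Cdk11b (Pearson's r = 0.991), Rccd1 (0.985), Itpr2 (0.982), Prpf40b (0.980) and Ruvbl1 (0.980). Its partner Slc3a2 had an r of 0.878, and 174 of the 12013 genes compared were more like Slc7a5 than Slc3a2 was. These correlations are descriptions over 6 libraries of 2 groups that share the scaling of each library, without a test.

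Among the members below the filter, reads were unevenly split between the groups in a few. Slc7a4 had 5, 2 and 4 reads in Mock against 1, 0 and 0 in HIF-1α-KD libraries, Slc1a3 had 0 reads in each Mock library and 2, 2 and 1 in HIF-1α-KD libraries, and Slc38a8 had 0, 1 and 5 reads in Mock against 0 in each HIF-1α-KD library. These are too few reads for a fold change, and the genes were named after their values were seen.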
